A study of Mus musculus with 6 samples.

Results

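The transcripts of 10 blood coagulation genes were followed in stimulated mouse macrophages: F3, which encodes tissue factor, the clotting factors F5, F7, F10 and F13a1, the inhibitors Tfpi and Tfpi2, the anticoagulant receptors Thbd and Procr, and the thrombin receptor F2r. They were picked by gene symbol, with earlier results of these data known, and all 10 had a feature among the 23185 that carry a symbol. The macrophages labelled Tet2 deficient came from 3 Tet2-/- mice and those of the other group from 3 wildtype littermates, both on the C57BL/6J background. In both groups the cells were collected from the peritoneal cavity on day 4 after 1 mL of 4% Brewer's thioglycollate medium, a broth that draws monocytes and macrophages into the abdomen. All 6 cultures, grown with 10% serum, then received lipopolysaccharide at 10 ng/mL and, with it, interferon gamma at 2 ng/mL for 10 h, so no value below describes resting cells. Each culture gave 1 array with RMA log2 expression values. Neither the age of the mice nor the way the Tet2 allele was made is given in the sources used here.

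Coagulation in blood begins when tissue factor, a membrane protein that circulating cells normally do not show, binds factor VII. The complex activates factor X, which with its cofactor factor V turns prothrombin into thrombin, and thrombin forms fibrin that factor XIII cross-links. Tissue factor pathway inhibitor blocks the first steps. Thrombomodulin (Thbd) and the endothelial protein C receptor (Procr) divert thrombin towards activation of protein C, which destroys factor V. Monocytes and macrophages make tissue factor when exposed to lipopolysaccharide. Peritoneal macrophages of the mouse are also a known source of several clotting factors, among them factors V, VII and X.

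F3, the gene of the receptor that starts the cascade, and F5, the gene of the cofactor of thrombin formation, rose in macrophages labelled Tet2 deficient, to 3.45-fold and 3.55-fold the wild-type level. F7, whose product is the partner of tissue factor, lay at 0.679-fold with groups that did not overlap, short of the threshold. The transcripts of F10, F13a1, Tfpi, Tfpi2, Thbd and F2r overlapped between the groups. Of the 10 genes, 2 rose, 0 fell and 8 did not pass an adjusted p of 0.05 in the limma fit over all features, where 0.952% of the 25206 features passed in either direction and 0.647% passed as higher. The groups did not overlap for 3 genes that were higher (F3, F5 and Procr) and 1 that was lower (F7), against 9.74% and 12.2% of all features (22.0% in either direction). The median log2 change of the 10 genes was 0.09, and that of all features was -0.04.

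**Figure D1:**
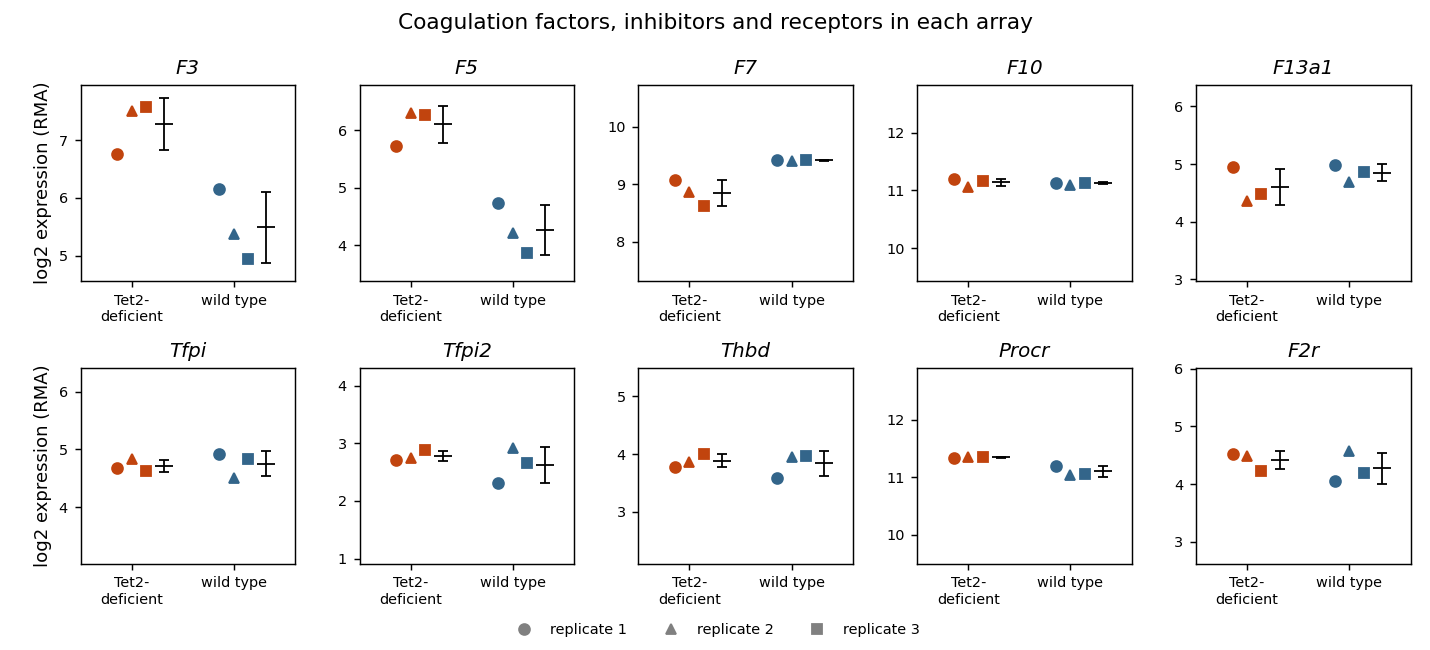
Log2 expression (RMA) of each gene on the vertical axis, every panel spanning the same range, with the 3 Tet2-deficient arrays left and the 3 wild-type arrays right; bars give the mean ± SD (n = 3). F3 and F5 are higher in every Tet2-deficient array than in any wild-type array, and F7 is lower in every Tet2-deficient array, while F10 lies between 11.06 and 11.19 in all 6.

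Some facts of the whole series bear on these values. Arrays labelled Tet2 deficient did not show a lower Tet2 feature, with log2 levels of 5.55, 5.25 and 5.75 there and of 5.40, 5.07 and 5.10 in wild-type arrays (log2 change 0.32 ± 0.16, limma adjusted p = 0.365). The position of its probes relative to the deletion is not given, so it cannot check the labels, and every direction rests on the sample labels. Array medians lay between 3.47 and 3.66 on the log2 scale and the highest value was 12.7. Of 8 general macrophage markers measured, including Adgre1, Csf1r and Cd68, all lay above every array's median. Over all features, arrays correlated at 0.989 to 0.991 among Tet2-deficient cultures, at 0.988 to 0.990 among wild-type cultures and at 0.983 to 0.987 across genotypes. A positive change means a higher value in Tet2-deficient arrays, ± is the standard error from limma unless SD is named, and the 3 arrays per group limit the precision. Levels of different genes are not set against each other, and sums of levels over a list are compared only between arrays.

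Because F3 and F5 were the genes that rose, the 250 bases before their RefSeq transcript starts are shown here, from assembly GRCm38.p6 and 5′ to 3′ on the gene's strand. Capitals mark matches, on either strand, to TGANTCA, the binding motif of the AP-1 factors, to GGGCGG, that of Sp1, and to CGGAGTTTCC, the kB-like site known from the human tissue factor promoter. The F3 stretch is chr3:121723287-121723536 on the plus strand and the F5 stretch is chr1:164151585-164151834 on the plus strand.
F3: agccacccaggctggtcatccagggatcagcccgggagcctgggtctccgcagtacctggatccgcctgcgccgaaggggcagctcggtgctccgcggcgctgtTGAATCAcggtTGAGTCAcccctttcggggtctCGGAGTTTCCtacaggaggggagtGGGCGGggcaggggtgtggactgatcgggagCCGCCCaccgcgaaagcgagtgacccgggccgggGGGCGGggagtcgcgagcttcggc
F5: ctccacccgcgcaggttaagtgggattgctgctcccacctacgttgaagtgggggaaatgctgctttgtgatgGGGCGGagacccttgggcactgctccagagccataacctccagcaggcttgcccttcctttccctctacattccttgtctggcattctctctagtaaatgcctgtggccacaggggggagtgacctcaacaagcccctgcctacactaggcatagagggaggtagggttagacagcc

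The genes that rose together do not look alike in these windows. In F3, TGAATCA lies at -146 to -140 from the start, TGAGTCA at -135 to -129 and CGGAGTTTCC at -113 to -104, followed by 3 matches to GGGCGG. In F5 the 1 match is a GGGCGG at -177 to -172, and neither TGANTCA nor CGGAGTTTCC occurs in its window. Windows of 250 bases before and 50 after the start were searched for all genes of the RefSeq table, 32851 in all. Of these, 7.81% held TGANTCA, 0.46% held it at least 2 times, 35.7% held GGGCGG and 0.037%, or 12 windows, held CGGAGTTTCC. That last sequence was added to the search after the F3 promoter had been read, so its match in F3 describes the gene and tests nothing. The NF-kB consensus (8.46% of windows) was not found in any of the 13 windows of these genes.

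Windows were found for 9 of the 10 genes, all but Thbd, and some of these genes have several starts. TGANTCA also occurred at Procr, F2r and 1 of 3 Tfpi2 windows, all genes that did not pass the threshold, and EGR1's motif GCGNGGGCG (5.55% of windows) occurred in the same Tfpi2 window, overlapping a GGGCGG. The TATA box letters TATAAA (13.6% of windows) occurred in the F3 window, after the start, and in 1 of 2 Tfpi windows. The F3 window held 32 CG dinucleotides, the sequence whose methylated form TET enzymes act on, and 9.52% of all windows held as many or more. The F5 window held 4, where the median window held 7. F7 and F10 held 5 each and F2r held 28. A match is a run of letters and not a measured site, and these arrays measured no DNA methylation.

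**Figure D2:**
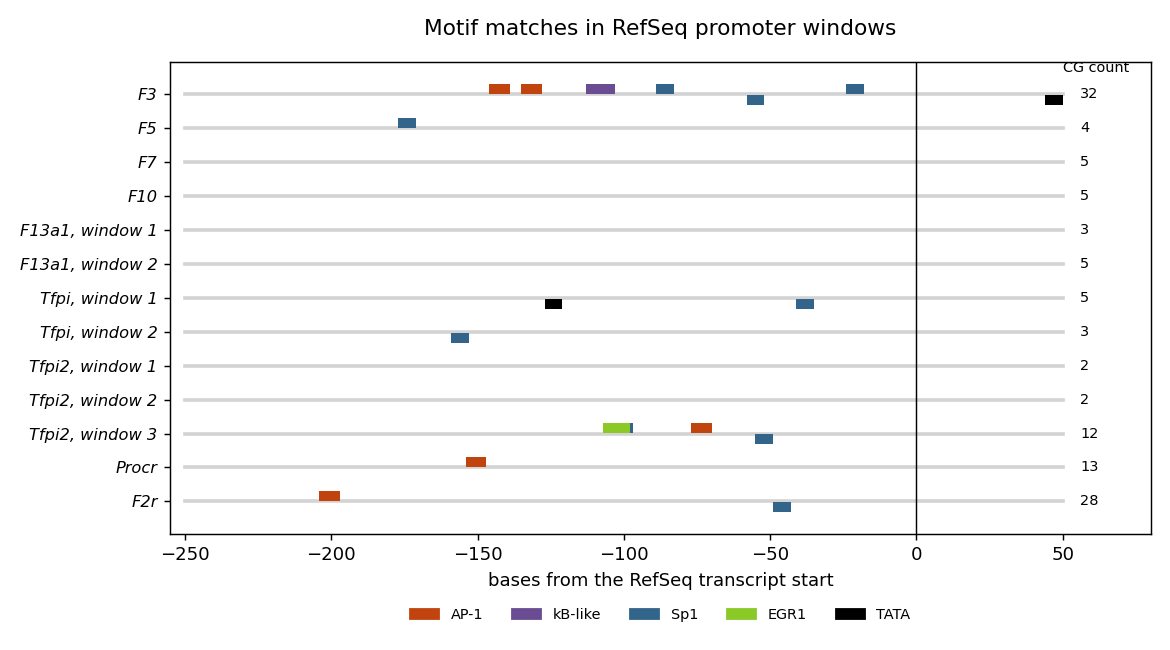
Distance in bases from the RefSeq transcript start on the horizontal axis, with 1 row per promoter window; coloured blocks are motif matches, above the grey line on the gene's strand and below it on the opposite strand, and the number of CG dinucleotides in each window stands at the right. F3 holds 2 AP-1 matches, the kB-like match and 32 CG dinucleotides, whereas F5 holds 1 Sp1 match and 4 CG dinucleotides.

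Tissue factor, the cell-surface receptor that starts coagulation, had the widest spread within the groups of all 10 genes. The F3 feature (Entrez gene 14066) read 6.76, 7.50 and 7.58 on the log2 scale in Tet2-deficient arrays and 6.16, 5.38 and 4.94 in wild-type arrays. Tet2-deficient replicate 1 was the lowest of its group and wild-type replicate 1 the highest of its own, so these arrays came closest, yet the groups did not overlap. Means were 7.28 ± 0.45 in Tet2-deficient and 5.49 ± 0.62 in wild-type macrophages (SD, n = 3 each). The log2 change was 1.79 ± 0.31, a fold of 3.45 with a 95% interval of 2.13 to 5.59 (limma adjusted p = 0.0361). Leaving out any 1 array other than wild-type replicate 1 ended the call, with adjusted p between 0.0746 and 0.149. The log2 change stayed between 1.51 and 2.12 in all 6 such fits.

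Factor V is the cofactor that speeds the formation of thrombin by factor X. The F5 feature (Entrez gene 14067) read 5.72, 6.30 and 6.27 on the log2 scale in Tet2-deficient arrays and 4.74, 4.21 and 3.87 in wild-type arrays. The same replicates as for F3, Tet2-deficient 1 and wild-type 1, stood nearest to the other group, and the groups did not overlap. Means were 6.10 ± 0.32 in Tet2-deficient and 4.27 ± 0.44 in wild-type macrophages (SD, n = 3 each). The log2 change was 1.83 ± 0.23, a fold of 3.55 with a 95% interval of 2.47 to 5.10 (limma adjusted p = 0.0152). Its call was lost without Tet2-deficient replicate 3 (adjusted p = 0.074) and without wild-type replicate 3 (0.0563), and held without any 1 of the other 4 arrays.

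F7 and F10 encode serine proteases of the same vitamin K-dependent family and lie next to each other in the RefSeq table. Factor VII is the enzyme that tissue factor binds. F7 log2 levels were 9.07, 8.87 and 8.62 in Tet2-deficient arrays and 9.41, 9.41 and 9.42 in wild-type arrays, so wild-type cultures were almost identical and every Tet2-deficient culture lay below them. This gave a log2 change of -0.56 ± 0.14 (limma adjusted p = 0.0927). It passed when features below the median level were left out of the fit (adjusted p = 0.0415) and with limma's trend and robust options (0.0261), and in none of the 6 fits that left out 1 array. Factor X is the protease that cleaves prothrombin. F10 read 11.19, 11.06 and 11.16 in Tet2-deficient arrays and 11.13, 11.10 and 11.13 in wild-type arrays. Its log2 change of 0.02 ± 0.11 had a 95% interval of -0.23 to 0.27 (adjusted p = 0.959).

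F13a1 encodes the catalytic subunit of factor XIII, the transglutaminase that cross-links fibrin. Its log2 levels were 4.95, 4.36 and 4.48 in Tet2-deficient arrays and 4.99, 4.69 and 4.87 in wild-type arrays. Tet2-deficient replicate 1 lay inside the wild-type range and the other 2 below it. The log2 change was -0.25 ± 0.17 with a 95% interval of -0.63 to 0.13 (limma adjusted p = 0.524).

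Neither Tfpi nor Tfpi2 passed the test. Tfpi encodes the inhibitor that blocks factor X and the complex of tissue factor with factor VII. It read 4.68, 4.83 and 4.63 in Tet2-deficient arrays and 4.92, 4.51 and 4.83 in wild-type arrays, with a log2 change of -0.04 ± 0.14 and a 95% interval of -0.36 to 0.27 (limma adjusted p = 0.919). Tfpi2, a related inhibitor of matrix and plasma proteases, read 2.72, 2.75 and 2.87 in Tet2-deficient arrays and 2.30, 2.92 and 2.65 in wild-type arrays. All of these Tfpi2 values lay below the median of their own array, in the range where RMA values compress differences, and its log2 change was 0.16 ± 0.16 (adjusted p = 0.698).

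The anticoagulant receptors did not pass the test either. Procr binds protein C and presents it to thrombin bound by thrombomodulin. It read 11.34, 11.34 and 11.35 in Tet2-deficient arrays and 11.20, 11.05 and 11.05 in wild-type arrays, so the groups did not overlap although they lay close together. The log2 change was 0.25 ± 0.11 with a 95% interval of -0.01 to 0.50 and a limma adjusted p = 0.328. Thbd encodes thrombomodulin itself and read 3.78, 3.86 and 4.01 in Tet2-deficient arrays and 3.59, 3.95 and 3.97 in wild-type arrays, with a log2 change of 0.05 ± 0.14 (adjusted p = 0.914). The thrombin receptor F2r, through which thrombin signals to cells, read 4.52, 4.49 and 4.23 in Tet2-deficient arrays and 4.06, 4.58 and 4.19 in wild-type arrays, with a log2 change of 0.14 ± 0.16 (adjusted p = 0.738). For both Thbd and F2r the groups overlapped.

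The 95% intervals of the log2 change show the precision reached for the other genes, gene by gene and not adjusted over them. They lay within -1 and 1, a 2-fold change either way, for 8 of the 10 genes, all but F3 and F5, and for 96.2% of all features. The highest upper limit among the 8 was 0.52, for Tfpi2, and the lowest lower limit was -0.87, for F7. Tfpi2 lay below every array's median, where RMA values compress differences, so its interval may understate the change. Thbd, at 3.59 to 4.01, lay close above the array medians of 3.47 to 3.66, and the same limit may touch it.

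**Figure D3:**
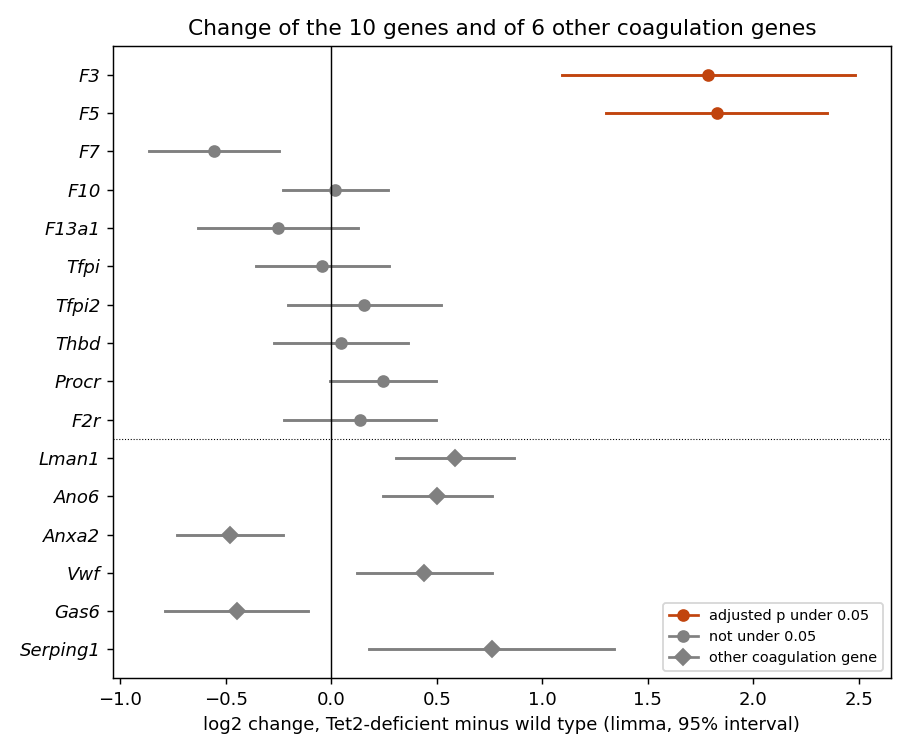
Log2 change, Tet2 deficient minus wild type, on the horizontal axis with its 95% interval from the limma fit (n = 3 arrays per group); the 10 genes stand above the dotted line and the 6 other coagulation genes with the smallest p below it. F3 at 1.79 and F5 at 1.83 pass the threshold and lie right of all others shown.

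How each gene that rose moved relative to its partners was read from the ratio of their values within each array. The log2 ratio of F3 to its inhibitor Tfpi was higher in Tet2-deficient arrays by 1.83 ± 0.42 (SE). That of F3 to F7, its ligand, was higher by 2.34 ± 0.52, that of F5 to F10 by 1.81 ± 0.33, and that of F5 to Procr by 1.58 ± 0.28. In each of these 4 pairs every Tet2-deficient array lay above every wild-type array. F3 and F5 were paired because they rose, and their own groups did not overlap. The ratios therefore largely restate those rises and are no separate evidence. The exact permutation p, two-sided, was 0.1 for each pair, which is the smallest that 3 arrays against 3 can give, so this test could not reach 0.05.

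F3 and F5 followed each other closely over the 6 arrays. Likeness was measured as the root mean square distance between 2 genes' log2 values, each centred on its own mean over the 6 arrays, among 19851 other named genes. F5 was the gene nearest to F3, at 0.13, and F3 was the second nearest to F5. The others of the 3 nearest to both were Fn1, which encodes the matrix protein fibronectin, and Ctla2b, which encodes a protein related to the inhibitory part of cathepsins. Fn1 lay at 0.17 from F3 and 0.12 from F5, and Ctla2b at 0.19 and 0.16. Part of this likeness is the shared difference between the groups, and no more is read from it.

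The genes next to F3 and F5 did not pass the test. The measured genes on either side of F3 were 4930432M17Rik, with a log2 change of 0.09 ± 0.12, and Abcd3, a peroxisomal transporter, with 0.10 ± 0.12. Those beside F5 were the predicted gene Gm16548, which overlaps it in the RefSeq table, with -0.02 ± 0.13, and Slc19a2, a thiamine transporter, with 0.02 ± 0.15. Their limma adjusted p lay between 0.751 and 0.972.

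The order of the arrays for F3 and F5 was close to that of markers of resident peritoneal macrophages, the long-lived population that stands beside the recruited cells after thioglycollate. Of 11 measured markers, 3 rose (Prg4, Timd4 and Tgfb2), 0 fell and 8 did not pass, with a median log2 change of 0.93. An unadjusted p under 0.05 was reached by 7 of the 11, where 16.0% of all features did. The groups did not overlap for 6 that were higher and 1 that was lower, against 9.74% and 12.2% of all features. Icam2, Alox15 and Cxcl13 were among these 6, with log2 changes of 0.99, 1.07 and 0.93 (limma adjusted p = 0.0523, 0.0551 and 0.0782). The mean log2 level of the 11 markers was 6.07, 6.55 and 6.39 in Tet2-deficient arrays and 5.76, 5.56 and 5.44 in wild-type arrays. Their summed linear level ran between 2043 and 2950 in Tet2-deficient arrays and between 1384 and 1660 in wild-type arrays. Here too replicate 1 was the lowest Tet2-deficient array and the highest wild-type array. Gata6, the transcription factor that defines these cells, did not pass, with mean log2 levels of 3.88 in Tet2-deficient and 3.65 in wild-type arrays, near the array medians. Cd9, the 1 marker of the 11 with a negative change, stood at -0.32 (limma adjusted p = 0.212), with groups that did not overlap. Selp, Garnl3 and Lrg1 had log2 changes of 0.07, 0.13 and 0.09. Among general macrophage markers, 2 of 8 rose, Cd14 and Itgam, 0 fell and 6 did not pass, with a median log2 change of 0.08 and 3 negative changes. The lowest of these were Aif1 at -0.76 (limma adjusted p = 0.114), whose groups did not overlap, and Fcgr1 at -0.51 (0.230). Of the 8 macrophage markers, 5 had an unadjusted p under 0.05, and groups did not overlap for 4 higher and 1 lower. Their summed linear level, which weights the brightest features most, was 8087 to 8485 in Tet2-deficient arrays and 6567 to 6772 in wild-type arrays. Of 7 monocyte markers 0 rose and 0 fell in the limma fit, with 1 at an unadjusted p under 0.05, Ly6c2 (log2 change 1.01, adjusted p = 0.0558). Their median log2 change was -0.01, with 4 of 7 negative, and their summed linear level was 336 to 491 in Tet2-deficient arrays and 254 to 296 in wild-type arrays. In bulk RNA, more cells of a type and more transcript per cell cannot be told apart, and the part of these cells in the rise of F3 and F5 was not tested.

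Markers of other cells known to carry these transcripts were also read. Of 10 endothelial markers 0 rose and 0 fell in the limma fit, with 0 at an unadjusted p under 0.05, and 6 lay below every array's median (Tek, Tie1, Cldn5, Emcn, Esam and Erg). Their mean log2 level was 3.39 to 3.40 in Tet2-deficient arrays and 3.37 to 3.38 in wild-type arrays. The summed linear level was 162, 132 and 157 in Tet2-deficient arrays and 129, 132 and 149 in wild-type arrays. Kdr had the largest change, 0.55 (limma adjusted p = 0.342), with groups that overlapped. It read 6.09, 5.09 and 6.03 in Tet2-deficient arrays and 5.03, 5.07 and 5.49 in wild-type arrays. Changes were positive for 3 of these markers and negative for 7. Of 8 platelet markers, likewise, 0 rose and 0 fell, with 0 at an unadjusted p under 0.05, and their summed linear level ran between 217 and 283 in Tet2-deficient and between 271 and 294 in wild-type arrays. Mesothelial markers gave 0 of 8 in the same fit, again with 0 at an unadjusted p under 0.05. Of 7 fibroblast markers 1 rose, Pdgfrb (log2 change 0.91), 0 fell and 6 did not pass, with 2 at an unadjusted p under 0.05 and a median log2 change of 0.59, positive for 6 of 7. Dcn had the largest change, 1.26 (limma adjusted p = 0.0715), with groups that did not overlap. The summed linear level of these markers was 233, 487 and 178 in Tet2-deficient replicates 1, 2 and 3 against 137 to 192 in wild-type arrays. Without Tet2-deficient replicate 2, the array with the highest fibroblast level, the log2 change was 1.67 for F3 (limma adjusted p = 0.083) and 1.73 for F5 (0.0467). Kept in that fit were Tet2-deficient replicate 1, at 233 also above every wild-type array, and replicate 3, at 178 within their range. The part of endothelial cells and of fibroblasts in the rise of F3 and F5 was not tested.

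**Figure D4:**
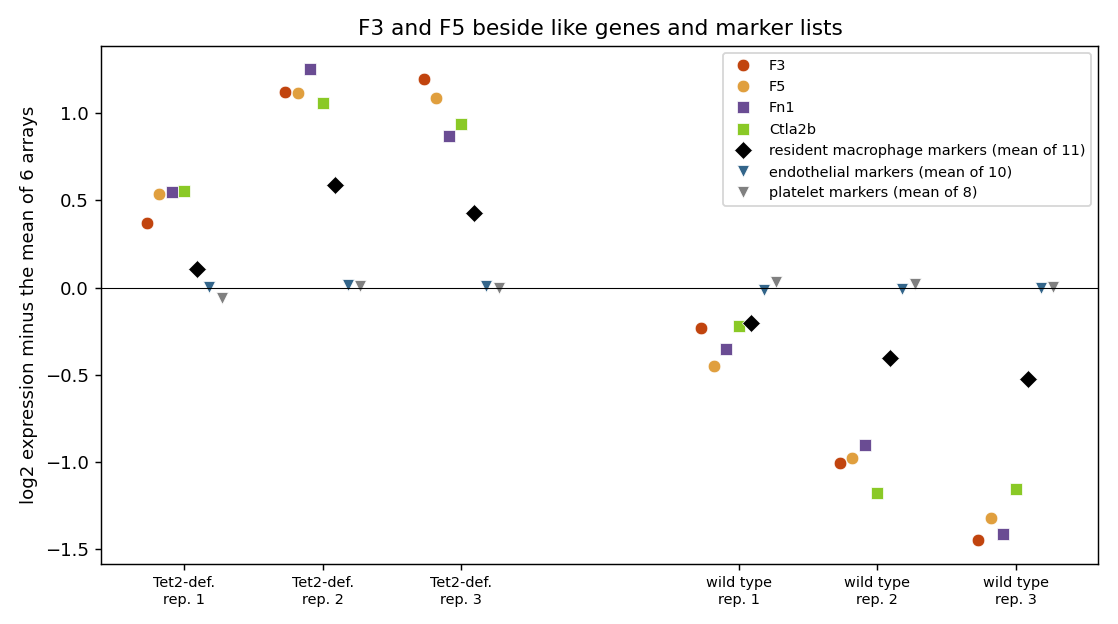
Log2 expression minus its mean over the 6 arrays on the vertical axis, by array on the horizontal axis, for F3, F5, the 2 genes most like both and the mean of 3 marker lists. F3 and F5 lie above 0 in all 3 Tet2-deficient arrays and below 0 in all 3 wild-type arrays, the resident macrophage markers do so over a smaller range, and the endothelial and platelet markers stay near 0. The fibroblast markers, with a median log2 change of 0.59, are not drawn.

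The rest of the coagulation system was read from a list of 40 genes, of which 37 were measured: other clotting factors, fibrinogen chains, protease inhibitors, protein C pathway members, thrombin receptors and the enzymes and cargo receptors that make and export clotting factors. In the limma fit 0 rose and 0 fell, and 7 had an unadjusted p under 0.05, where 16.0% of all features did. The median log2 change was 0.07. Of the 37 genes, 18 lay below every array's median, in the range where RMA values compress differences. The 3 genes with the smallest p were cell-associated proteins. Lman1 encodes the cargo receptor that exports factor V from the endoplasmic reticulum. It read 7.84, 7.71 and 7.52 in Tet2-deficient arrays and 7.16, 7.07 and 7.09 in wild-type arrays (log2 change 0.59 ± 0.12, adjusted p = 0.0637). Mcfd2, which works with Lman1 in this export, had a log2 change of 0.01 ± 0.13 (adjusted p = 0.983).

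Ano6 encodes a scramblase that exposes phosphatidylserine, the lipid surface on which clotting complexes assemble. It read 7.74, 7.64 and 7.79 in Tet2-deficient arrays and 7.28, 7.25 and 7.13 in wild-type arrays (log2 change 0.50 ± 0.12, limma adjusted p = 0.0771). Anxa2, a surface receptor for plasminogen and its activator, read 9.36, 9.36 and 9.33 in Tet2-deficient arrays and 9.81, 9.76 and 9.91 in wild-type arrays (-0.48 ± 0.11, adjusted p = 0.0783). For Lman1, Ano6 and Anxa2 the groups did not overlap. Over all 37 genes this held for 7 that were higher and 2 that were lower. Among all features it held for 9.74% as higher and 12.2% as lower, 22.0% in either direction. Lman1, Ano6 and Anxa2 passed with dim features left out and with limma's trend and robust options.

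The next genes by p were Vwf, the carrier of factor VIII (log2 change 0.44 ± 0.14, limma adjusted p = 0.173), Gas6, a vitamin K-dependent ligand of TAM receptors (-0.45 ± 0.15, adjusted p = 0.187), and Serping1, the inhibitor of complement C1 and of contact activation (0.76 ± 0.26, adjusted p = 0.192). The cofactor of activated protein C, Pros1, had a log2 change of 0.12 ± 0.11 (adjusted p = 0.647). Fibrinogen chains and prothrombin, products of the liver, lay below every array's median in Tet2-deficient and wild-type arrays alike. Fga, Fgb, Fgg and F2 had mean log2 levels of 2.06, 1.89, 1.42 and 2.86 in Tet2-deficient arrays and of 1.92, 1.81, 1.48 and 3.02 in wild-type arrays.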

How the data were processed

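Per the submitters' processing notes, the authors made the deposited log2 expression values by RMA, with version 1.36.1 of affy. No source used here gives the array type, the probe sets or the genome build. RMA draws all arrays to nearly 1 distribution (sorted values differed by at most 0.27), so they were not normalized again. No 2 arrays held the same values (at least 99.7% of features differed in each pair). Of 25206 features, 23185 had 1 gene symbol. Per the labels, replicates are biological.

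For the comparison Tet2 deficient minus wild type, limma 3.58.1 (lmFit, eBayes; R 4.3.3) was fitted to every feature. Tests were two-sided, p-values were adjusted by Benjamini-Hochberg over the whole table with 0.05 as threshold, and the fit was tested on simulated data. No filter was set. The 10 genes and all lists were chosen with earlier results of these data known. Named were the 10 genes, Tet2, the 6 other coagulation genes with the smallest p, and for F3 and F5 the neighbours and the 3 genes most like them; predicted genes and small RNAs were left out of likeness. Other list members were named after their values were seen. Promoter sequences and gene order are from RefSeq, GRCm38.p6. Among the listed genes, Serpine2, Cpb2 and F2rl1 were not analysed here. The 13 alternatives were other scalings (array medians, cyclic loess), dim or unnamed features left out, a replicate block, trend and robust options of eBayes, array weights and each array left out in turn.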

Additional observations from a re-analysis of the deposited data

How the results depend on the processing

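The number of features past the threshold was 240 as deposited, 846 with dim features left out, 814 with limma's trend and robust options, 498 with array weights, and 11 to 155 when 1 array was left out. The share of higher features among them was 67.9% as deposited, 78.8% with arrays centred on their medians and 59.6% with cyclic loess. Of the 10 coagulation genes 2 passed as deposited, 0 to 2 when 1 array was left out and 1 with the replicate block. The log2 change ran from 1.51 to 2.12 for F3 and from 1.62 to 2.06 for F5 over the fits without 1 array, in which F3 passed in 1 of 6 and F5 in 4 of 6. With the replicate block F3 kept its log2 change of 1.79 but not its call (adjusted p = 0.0655), and F5 passed (0.0328). Replicates of the same number deviated from their group means with correlations of 0.084, 0.19 and 0.025. Tet2-deficient replicates 1 and 2 correlated best with their own number, and replicate 3 did not. So few pairs cannot decide whether the arrays share more than a number. F7, at a log2 change of -0.56, passed with dim features left out and with limma's trend and robust options. Of the 37 other coagulation genes 0 passed as deposited and in each fit without 1 array, 3 with dim features left out, 3 with limma's trend and robust options and 1 with array weights. F10, F13a1, Tfpi, Tfpi2, Thbd, Procr and F2r passed under none of the alternatives run for them; Tfpi2 had no value with dim features left out. The cause of these differences was not tested, other than that fewer features or arrays entered some fits.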
